A study of Homo sapiens with 20 samples.

Results

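Exons longer than 300 bases were followed through 7 tables of alternative splicing. All samples were HEK293T, a human line derived from embryonic kidney that carries the SV40 large T antigen. Members were all exon events with a length above 300 bases. They numbered 480 of the 14593 listed exons (3.29%), gave 709 of 21103 listings over the 7 tables, and lay in 464 genes plus 1 exon without a gene symbol. Their lengths ran from 301 to 9361 bases with a median of 464, whereas the median of all listed exons was 100. A value in a table is the percent spliced in (PSI), the percentage of a gene's transcripts that include the exon, given by the authors as the mean of a group of 2 samples. The files hold no replicate values and no unlisted exons, so single values have no error here, the depth behind them is unknown and no test could be made. "Lower" and "higher" below describe the treated mean minus the control mean in percentage points, and the smallest absolute difference in any table was 15.005 points.

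The 20 samples formed 10 groups of 2. MLN8237 (alisertib), an inhibitor of the mitotic kinase Aurora-A, was given for 24 h and compared with its solvent DMSO in the first set. In the second set, cells were transfected for 48 h with siRNAs against SRSF1, SRSF2, SRSF7 or SF3B5 and compared with a non-targeting siRNA group, siNT1. In the third set, siRNAs against SRSF3 or RBM39 were compared in the same way with a second non-targeting group, siNT2. The labels do not state whether replicate samples were separate cultures, and no expression values were analysed here, so the degree of depletion was not checked.

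Most internal exons of vertebrate genes are short, and the splicing machinery recognises them across the exon, pairing the splice sites at its ends. Long internal exons are harder to define in this way and lean on enhancer sequences inside the exon. SR proteins such as SRSF1, SRSF2, SRSF3 and SRSF7 bind such sequences. The RNA recognition motif of SRSF3 binds short pyrimidine-rich sequences such as CATC (CAUC in RNA), and SRSF3 is known as a factor that favours inclusion of cytidine-rich exons. SF3B5 is a subunit of the complex that recognises the branch point, and RBM39 is a splicing factor related to the U2AF family.

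Sequences show what the long exons with the largest differences look like. The first set holds the opening 150 bases of the 6 wholly coding exons with the largest decreases after SRSF3 depletion among those matched to a unique annotated exon, 5′ to 3′ on the gene's strand, with CATC in capitals. The positions, on GRCh38, were chr13:73846224-73846373 (minus strand) for KLF12, chr16:30723584-30723733 (plus) for SRCAP, chr20:34757955-34758104 (minus) for NCOA6, chr17:40264490-40264639 (plus) for WIPF2, chr7:155739715-155739864 (plus) for RBM33 and chr14:24164614-24164763 (plus) for IRF9.
KLF12: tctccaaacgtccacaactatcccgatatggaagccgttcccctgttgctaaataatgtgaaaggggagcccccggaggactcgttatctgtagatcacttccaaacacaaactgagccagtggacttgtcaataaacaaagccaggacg
SRCAP: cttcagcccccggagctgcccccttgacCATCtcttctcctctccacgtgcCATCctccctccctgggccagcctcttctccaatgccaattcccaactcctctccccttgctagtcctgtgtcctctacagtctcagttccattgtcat
NCOA6: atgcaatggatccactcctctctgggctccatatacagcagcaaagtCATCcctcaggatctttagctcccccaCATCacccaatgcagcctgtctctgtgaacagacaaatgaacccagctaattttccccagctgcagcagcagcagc
WIPF2: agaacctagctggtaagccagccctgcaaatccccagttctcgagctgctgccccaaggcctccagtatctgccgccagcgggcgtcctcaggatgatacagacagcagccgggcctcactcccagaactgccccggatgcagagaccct
RBM33: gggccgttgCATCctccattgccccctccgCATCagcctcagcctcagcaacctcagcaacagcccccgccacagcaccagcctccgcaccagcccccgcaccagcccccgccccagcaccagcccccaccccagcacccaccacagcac
IRF9: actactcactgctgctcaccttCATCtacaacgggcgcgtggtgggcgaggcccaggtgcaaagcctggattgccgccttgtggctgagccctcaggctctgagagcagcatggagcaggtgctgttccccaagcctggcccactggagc
Cytosine made up 84 of the 150 bases in RBM33, 67 in SRCAP, 56 in WIPF2, 52 in NCOA6, 48 in IRF9 and 41 in KLF12. CATC occurred in 4 of the 6 windows. The KLF12 and WIPF2 windows had none, and their whole exons, of 547 and 657 bases, had 9 copies and 1 copy.

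The second set holds the same window of 3 exons chosen by the same rule after SF3B5 depletion, among exons not listed after SRSF3 depletion. SF3B5 depletion listed the second-largest number of long exons, and these 3 stand for themselves and not for that list. The positions were chr7:22493630-22493779 (minus) for STEAP1B, chrX:77684444-77684593 (minus) for ATRX and chr12:12244506-12244655 (minus) for LRP6.
STEAP1B: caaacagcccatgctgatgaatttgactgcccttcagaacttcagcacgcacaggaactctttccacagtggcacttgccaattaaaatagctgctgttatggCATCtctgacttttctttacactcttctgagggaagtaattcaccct
ATRX: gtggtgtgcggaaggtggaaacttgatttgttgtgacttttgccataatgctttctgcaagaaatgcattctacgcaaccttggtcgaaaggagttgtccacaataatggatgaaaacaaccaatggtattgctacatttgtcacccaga
LRP6: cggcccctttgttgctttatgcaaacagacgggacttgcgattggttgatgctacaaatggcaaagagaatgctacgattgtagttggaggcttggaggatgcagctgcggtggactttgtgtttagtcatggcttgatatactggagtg
STEAP1B has near-identical relatives in the genome, so its reads, and its PSI, are uncertain. The PSI went from 94.0% to 40.9% for STEAP1B, from 98.9% to 47.3% for the ATRX exon of 1055 bases and from 93.8% to 42.2% for LRP6.

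SRSF3 depletion listed the most long exons. Its table held 280, which was 8.35% of its 3354 exons (exact Clopper-Pearson 95% interval 7.43% to 9.34%, counting error only, and exons are not independent). The next highest share was that of SRSF7 depletion, with 69 of 1397 exons or 4.94% (3.86% to 6.21%), so the SRSF3 share was 1.69 times as high. SRSF1 depletion followed with 78 of 1591 exons or 4.90% (3.89% to 6.08%). The share was 3.13% (2.43% to 3.97%) for the 66 long exons of SRSF2 and 2.57% (2.01% to 3.23%) for the 71 of RBM39. SF3B5 depletion had the longest table, with 9766 exons, and the lowest share, 141 or 1.44% (1.22% to 1.70%). The interval for SRSF3 did not overlap those of the other 5 depletions. MLN8237 listed only 4 long exons among 121, or 3.31%, and its interval of 0.908% to 8.25% did overlap. SRSF3 and RBM39 depletion were compared with the same siNT2 samples and lay at 8.35% and 2.57%.

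**Figure D1:**
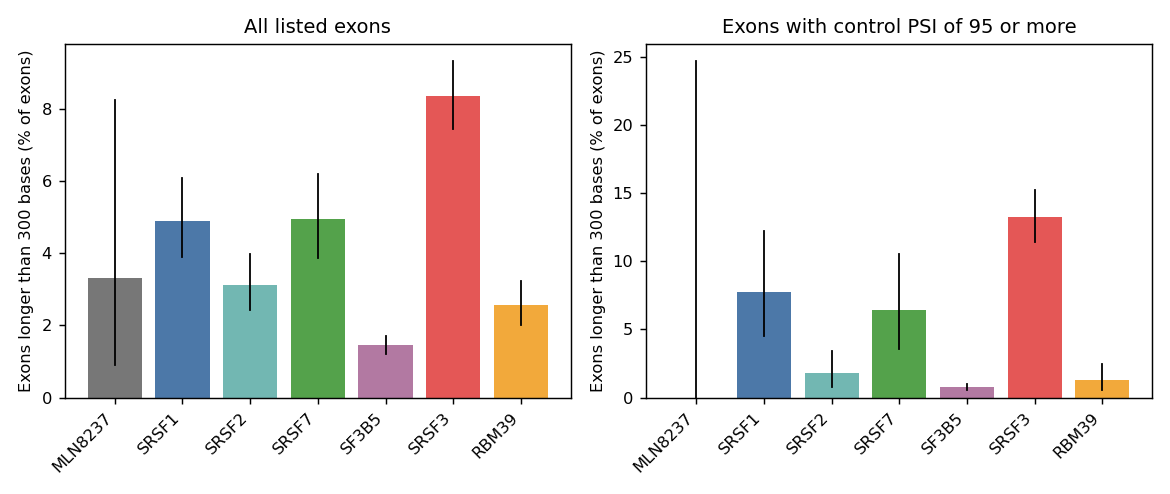
Share of exons longer than 300 bases among all listed exons of each table (left, percent) and among listed exons with a control PSI of 95 or more (right, percent). Bars are the share and lines its exact 95% interval; SRSF3 depletion has the highest bar in both panels, at 8.35% and 13.2%, and MLN8237 has no long exon in the right panel.

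SRSF3 depletion also had the highest share of long exons among exons that are almost always included in the control, 1.71 times the next highest. Of the 280 long exons listed after SRSF3 depletion, 165 (58.9%) had a control PSI of 95 or more, against 35.2% of the other exons of that table. All listed exons of this class, 1247 in number, held 13.2% long exons (11.4% to 15.2%). The same class held 7.73% long exons after SRSF1 depletion (4.48% to 12.2%), 6.42% after SRSF7 (3.56% to 10.5%), 1.76% after SRSF2, 1.27% after RBM39 and 0.753% after SF3B5, and the intervals of SRSF3 and SRSF1 overlapped. Among exons with a control PSI from 20 to 80, the SRSF3 share was 5.29% (3.98% to 6.88%) and those of the other depletions were 3.11% to 4.54%, with overlapping intervals. An exon near full inclusion can be listed only as lower, so the control level limits the direction of these exons.

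Long exons were mostly lower after SRSF3 depletion. Of the 280, 265 (94.6%) were lower and 15 higher, where 80.9% of all listed exons of that table were lower. The median control PSI was 97.0% and the median difference was −26.4 points, beside 88.2% and −20.9 points for the exons of up to 300 bases. Regardless of direction, the median absolute differences were 27.1 and 23.3 points. A decrease of more than 50 points was seen for 46 long exons (16.4%) and for 6.21% of the shorter ones. Decreases of that size were rarer among the long exons of the other tables. SF3B5 depletion had 7 of 141 (4.96%, beside 10.0% of its shorter exons) and SRSF1 4 of 78 (5.13%, beside 2.45%). SRSF2 had 4 of 66 (6.06%, beside 4.60%) and SRSF7 1 of 69 (1.45%, beside 1.13%). RBM39 and MLN8237 had none, beside 2.00% and 0.855% of their shorter exons. Of the 165 long exons with a control PSI of 95 or more, 29 came down below 50 after SRSF3 depletion. After SF3B5 depletion 3 of 45 did so. None did among the 16 of SRSF1, the 14 of SRSF7, the 8 of SRSF2 and the 8 of RBM39, and MLN8237 had no such exon. The same count is not given for exons of up to 300 bases, so these numbers describe the long exons alone.

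**Figure D2:**
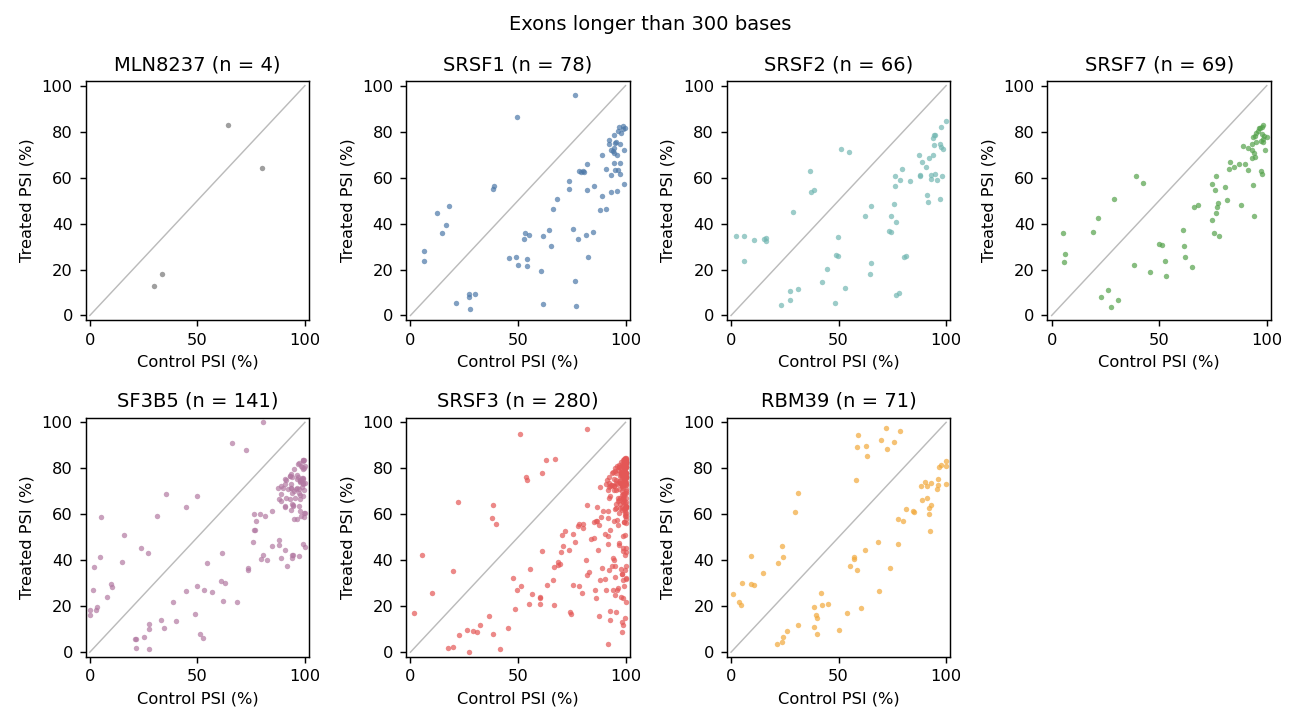
Control PSI (x axis, percent) against treated PSI (y axis, percent) of every listed long exon, 1 panel per table, with 1 point per exon and the grey diagonal marking no difference. The empty band along the diagonal is the listing limit of 15 points. The SRSF3 panel is dense at the right edge, where 165 exons with a control PSI of 95 or more extend downwards. Of these, 29 end below 50, and shorter exons are not drawn.

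The largest decreases after SRSF3 depletion took exons from near-complete inclusion to near-complete skipping. The exon of 363 bases in CREBBP, a histone acetyltransferase and transcriptional coactivator, had a PSI of 98.3% in siNT2 and 8.69% after depletion. PROSER1, which encodes a proline- and serine-rich protein, had an exon of 1593 bases at 91.8% and 3.40%. In KLF12, a Krüppel-like transcriptional repressor, the exon of 547 bases went from 98.9% to 11.7%. These 3 differences, of −89.7, −88.4 and −87.2 points, were the largest of any long exon in the 7 tables.

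Similar decreases were seen in SRCAP, NCOA6 and HOXC4. The exon of 1499 bases of SRCAP, the ATPase of a chromatin remodelling complex that deposits a histone variant, had 98.3% and 13.1%. NCOA6, a nuclear receptor coactivator, had an exon of 885 bases at 99.8% and 15.03%. The exon of 445 bases of the homeobox gene HOXC4 had 98.8% and 23.5%. All 3 exons were included almost always in the control group and in 13.1% to 23.5% of transcripts after depletion.

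The remaining exons of this range lay in genes of varied function. RBM33 encodes an RNA-binding protein, and its cytosine-rich exon of 312 bases went from 100% to 21.7%. YTHDF1, a reader of methylated adenosines in mRNA, had an exon of 1521 bases at 92.6% and 18.1%. IRF9 is the DNA-binding part of the interferon-activated transcription factor complex, and its exon of 342 bases went from 95.5% to 17.5%. The exon of 657 bases of WIPF2, a partner of WASP proteins in actin assembly, went from 92.7% to 13.8%, and that of 326 bases of the membrane protein gene TMEM8B from 97.8% to 23.9%. The lowest control value among these exons was the 91.8% of PROSER1. On GRCh38 the exons outside the printed set lie at chr20:63202287-63203807 (YTHDF1, coding, minus strand), chr9:35842392-35842717 (TMEM8B, coding, plus) and chr12:54053917-54054361 (HOXC4, partly coding, plus), and those of CREBBP and PROSER1 had no unique match in the annotation.

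The 8 longest exons of the SRSF3 table were all lower, though none by as much as the SRSF3 exons described above. The median difference was −30.5 points for the 26 exons above 1000 bases, beside −26.4 for all long exons of that table. ZNF646, a zinc finger gene, had an exon of 5456 bases at 99.2% and 76.3%. The exon of 4755 bases of ASPM, a spindle pole protein, had 71.1% and 46.4%, and that of 3458 bases of the transcriptional repressor gene SALL1 had 87.4% and 55.4%. TET2, an enzyme that oxidises methylcytosine in DNA, had an exon of 3455 bases at 77.7% and 54.7%. PCDH9 (protocadherin, 3171 bases) went from 99.7% to 82.6%, ZNF608 (2455 bases) from 95.7% to 62.8% and the centrosome gene NIN (2139 bases) from 68.5% to 37.9%. TNRC6B, an Argonaute partner in microRNA silencing, had the largest decrease of the 8. Its coding exon of 2349 bases (chr22:40264688-40267036, plus strand) went from 98.2% to 34.0%.

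Of the 15 long exons that were higher after SRSF3 depletion, the 6 with the largest differences were skipped in many control transcripts. The zinc finger gene ZBTB8B had an exon of 1032 bases at 51.0% and 95.02%, and COA1, a mitochondrial assembly factor, had one of 771 bases at 22.2% and 65.2%. DOPEY1, a membrane trafficking gene, had an exon of 359 bases at 5.30% and 42.2%. UBAP2L (330 bases) was at 38.6% and 64.2%, ZSCAN23 (627 bases) at 53.8% and 76.1%, and the kinetochore gene MIS12 (394 bases) at 54.1% and 74.8%. The highest of these 6 control values was the 54.1% of MIS12.

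Gene lists were drawn up with earlier results of these data known, so their counts describe and support nothing. Among coactivators and corepressors, 56 exons were listed after SRSF3 depletion and 8 of them (14.3%, beside 8.35% over the whole table) were long, all lower, with a median difference of −45.3 points beside −26.4 for all long exons. Besides CREBBP, PROSER1 and NCOA6 they included MED13L, a Mediator kinase module subunit, at 99.7% and 42.1%, and EP300, the close relative of CREBBP, at 100% and 67.0%. The chromatin list had 89 exons, of which 15 (16.9%) were long, 14 lower and 1 higher, with a median of −28.01 points. Its members after SRCAP were the histone demethylase gene PHF2 (100% and 56.4%), the remodeller gene CHD8 (81.4% and 40.1% for the exon of 463 bases) and the histone methyltransferase gene SETDB1 (99.3% and 62.2%). The member that was higher was SETDB2, named after its value was seen, at 67.4% and 83.8%.

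The list of RNA processing and RNA-binding genes had 73 exons, 9 of them long (12.3%) and all 9 lower, with a median of −39.5 points. All 3 TNRC6 paralogues appeared in it. TNRC6A had an exon of 426 bases at 95.8% and 26.9%, and TNRC6C one of 312 bases at 97.9% and 73.4%, beside the TNRC6B exon described above. A second YTHDF family gene, YTHDF3, had a long exon at 99.0% and 77.7%. The centrosome, cilium and mitosis list had 42 exons, 7 of them long (16.7%) and all 7 lower, with a median of −22.8 points. C2CD3, a centriole protein, had an exon of 495 bases at 96.7% and 67.2%, and RPGRIP1L, a transition zone protein of cilia, one of 379 bases at 97.4% and 74.7%.

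Zinc finger gene names contributed 13 long exons of 115 listed (11.3%), 10 lower and 3 higher, with a median of −22.2 points. ZNF362 had an exon of 334 bases at 98.0% and 36.4%, ZNF354B one of 1810 bases at 97.4% and 62.8% and ZNF653 one of 612 bases at 98.8% and 65.3%. DNA repair genes contributed 1 of 28 (3.57%, beside 8.35% over the whole table), in the checkpoint kinase gene CHEK2, at 93.8% and 72.7%. No long exon of the 7 targeted genes was listed in any table.

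In 5 genes 2 long exons each were listed in the SRSF3 table: CHD8, HSPA14, MON1B, PRDM6 and ZSCAN23. In PRDM6, a transcriptional repressor, the exon of 607 bases went from 95.2% to 32.5% and that of 343 bases from 97.8% to 82.6%. In MON1B, an endosome trafficking gene, the exon of 820 bases went from 100% to 60.6% and that of 327 bases from 100% to 70.2%. The difference thus varied between exons of a gene that were both near full inclusion in the control.

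The higher share after SRSF3 depletion began below 300 bases. Exons of 201 to 300 bases made up 13.3% of the SRSF3 table, 447 in number, and 2.81% to 7.26% of the other 6. In the SRSF3 table the share of exons that were lower was 63.5% up to 100 bases, 86.8% from 101 to 200 and 94.4% from 201 to 300, and then stayed between 93.9% and 96.2% in the 3 classes above 300. Just outside the limit, the 12 exons within 5 bases below it were all lower with a median difference of −21.4 points and a median control PSI of 98.4%. Just inside, the 7 exons within 5 bases above it were all lower with medians of −21.0 points and 98.0%. The largest decrease next to the limit was that of RBM27, an RNA-binding protein gene, whose exon of 297 bases had 99.4% and 10.9%. These values show no step at 300 bases.

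**Figure D3:**
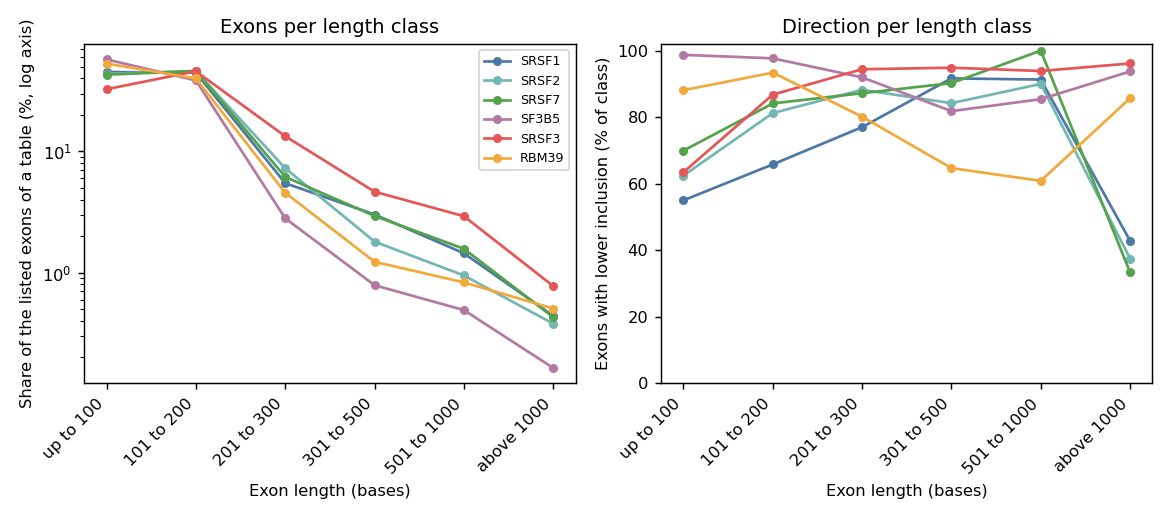
Share of a table's listed exons in each length class (left, percent, log axis) and share of each class that was lower (right, percent), by exon length in bases, for the 6 depletions. SRSF3 depletion lies above the others from 201 bases upwards on the left, and on the right stays at 93.9% or more from that class on, while the classes above 1000 bases of SRSF1, SRSF2 and SRSF7 depletion, with 7, 8 and 6 exons, are at 42.9%, 37.5% and 33.3%.

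Sequence composition was read from annotated exons. A unique internal exon of the same gene and length was found in GENCODE for 356 of the 480 members (74.2%), and for 220 of the 265 that were lower after SRSF3 depletion (83.0%). For the other depletions between 66.7% and 79.8% of the lower members were matched, short of the 80% required here, so the check of composition is void for them and their values are not given. The 220 exons had a median cytosine content of 32.0% (quartiles 24.4% and 36.2%), against 26.9% (22.1% and 31.8%) in all 16009 annotated internal exons above 300 bases and 28.03% in the 6087 wholly coding ones. Cytosine exceeded guanine in 179 of the 220 (81.4%), and in 49.98% of the annotated exons. CATC, counted on the gene's strand with overlaps, had a median of 0.54 copies per 100 bases. The median was 0.42 in all annotated exons and 0.46 in the wholly coding ones. At least 1 copy was present in 90.5% of the 220 exons and in 88.4% of the annotated ones. Within the first 150 bases CATC was present in 124 of 220 exons (56.4%) and in 50.4% of the annotated ones. The sets were not matched for cytosine content or, outside this window, for length, so these contrasts do not isolate the motif. GAAGAA, a purine-rich enhancer sequence, was present in 22.3% of the 220 exons and in 37.0% of the annotated ones, without matching for length. The annotated set includes exons of genes that HEK293T cells may not express.

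High cytosine was not confined to the long exons of the SRSF3 table, since the 351 matched exons of 201 to 300 bases that were lower had a median of 32.5%. Among the long ones, the median was 33.8% for the 42 with a decrease of more than 50 points, 31.8% for the 81 with 25 to 50 points and 31.6% for the 97 with less. The 147 exons with a control PSI of 95 or more had 33.2% and the 73 below it had 26.1%. The 163 matched exons that no other table listed had 33.1%.

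**Figure D4:**
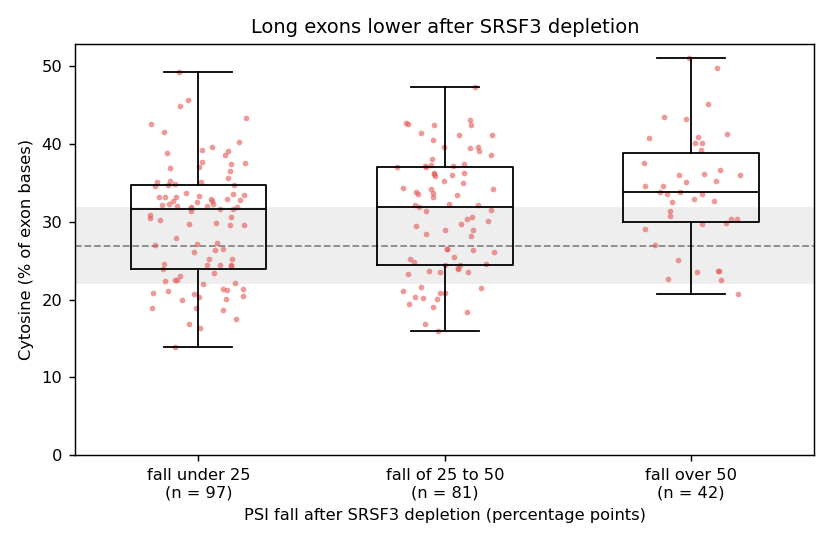
Cytosine content (y axis, percent of exon bases) of the 220 matched long exons lower after SRSF3 depletion, grouped by the size of the PSI fall in percentage points (x axis). Points are exons, boxes the quartiles with the median, the dashed line the median of all annotated internal exons above 300 bases (26.9%) and the grey band their quartiles; the 3 medians, 31.6%, 31.8% and 33.8%, lie above the line.

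Most of the matched long exons of the SRSF3 table code for protein. Of 228 matched, 161 (70.6%) were wholly coding, 59 partly coding and 8 untranslated or non-coding, against 38.0% wholly coding among the annotated exons. The 16009 annotated exons include 6641 untranslated or non-coding ones and were not limited to expressed genes. The contrast is therefore not one between like sets, and whether it is particular to SRSF3 depletion was not tested. Of the 160 wholly coding exons that were lower, 73 (45.6%) had a length that is a multiple of 3, so that skipping keeps the reading frame, and 87 did not. The share in the annotation was 44.8%.

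The other SR protein depletions listed fewer long exons, with smaller and more mixed differences. After SRSF1 depletion 68 of 78 were lower (87.2%, beside 62.6% of all its listed exons), with a median control PSI of 80.6% and a median difference of −20.9 points. The largest decreases were in RPS6KL1, a kinase-like gene, from 76.9% to 4.06% (606 bases), in ZSCAN23 from 76.6% to 14.9% (485 bases) and in UIMC1, a ubiquitin-binding DNA repair gene, from 82.3% to 25.4% (737 bases). WDR53 (431 bases) was higher, at 49.5% and 86.3%, as was WNK2, a kinase gene, at 12.5% and 44.4% (522 bases). The highest control value among its 5 largest decreases was 84.8%, in PCMTD1 (402 bases, 36.3% after depletion), whereas the exons with the largest decreases after SRSF3 depletion described above began at 91.8% or more.

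After SRSF2 depletion 53 of 66 long exons were lower (80.3%, beside 73.5%), with medians of 76.4% for the control and −22.5 points for the difference. ZNF75D, a zinc finger gene, had an exon of 529 bases at 77.98% and 9.59%, and the ZSCAN23 exon of 485 bases reached 9.07%. ZNF397 was at 81.5% and 26.0%. Zinc finger genes thus held the 3 largest decreases. CCDC88C, a Wnt signalling gene, had an exon of 442 bases that was higher, at 2.18% and 34.4%.

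After SRSF7 depletion 61 of 69 were lower (88.4%, beside 78.5%), with medians of 81.5% and −21.0 points. RWDD2B (358 bases) was at 94.0% and 43.3%, the only difference beyond −50 points. PPM1K, a mitochondrial phosphatase gene, had an exon of 499 bases at 65.2% and 20.9%. ALG11, a glycosyltransferase gene, had an exon of 1903 bases that was higher, at 5.20% and 35.9%. The exon of 2961 bases of VCAN, the extracellular matrix proteoglycan versican, had a siNT1 value of 6.23% and was higher in the tables of SRSF1 (23.9%), SRSF2 (34.6%) and SRSF7 (26.6%), which share these control samples.

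Long exons were less uniformly lower than shorter ones after depletion of RBM39 and of SF3B5. After RBM39 depletion 48 of 71 (67.6%) were lower, beside 89.3% of all its listed exons, with medians of 60.3% and −18.0 points. UIMC1 (737 bases) was at 68.9% and 26.8% and USP53 (686 bases) at 60.3% and 19.2%. Higher values were seen for SRCIN1, a gene for a Src kinase inhibitor, at 31.0% and 69.2% (585 bases), for PPM1K at 59.0% and 94.3%, and for the exon of 5508 bases of DST, a cytoskeletal linker, at 9.33% and 41.8%. After SF3B5 depletion 119 of 141 (84.4%) were lower, beside 97.9%, with medians of 90.5% and −22.8 points. HDX, a homeobox gene, had an exon of 1104 bases at 97.3% and 41.8%, and ZNF354B one of 1810 bases at 100% and 46.0%. DOPEY1 was higher, at 5.25% and 58.9%, as were ACSF3 (718 bases) at 4.77% and 41.3% and KIF20B, a mitotic kinesin gene, at 1.81% and 37.1% (306 bases). These 3 exons were nearly absent from the control transcripts.

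All 4 long exons listed under MLN8237 had small differences, and 3 were lower (75%, beside 48.8% of all its listed exons). The chloride transporter gene CLCN5 (436 bases) was at 29.7% in DMSO and 12.9% with the inhibitor, GPR153 (430 bases) at 80.2% and 64.1%, and SLC35E2 (2565 bases), which has a near copy in the genome, at 33.7% and 18.0%. TET2 (3455 bases) was higher, at 64.0% and 82.7%. The same TET2 exon was lower after depletion of SRSF3 and of RBM39 (77.7% and 57.8%), which share siNT2.

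Most members were listed once. Of the 480, 351 were in 1 table, 66 in 2, 37 in 3, 18 in 4, 5 in 5 and 3 in 6. SRSF3 depletion listed 58.3% of all members, and 197 of its 280 (70.4%) were in no other table. Of all its exons in no other table, 12.5% were long, beside 8.35% of its whole list. These shares were 4.23% and 2.57% for RBM39, 5.28% and 4.90% for SRSF1 and 4.98% and 4.94% for SRSF7. They were 2.79% and 3.13% for SRSF2 and 1.04% and 1.44% for SF3B5. SRSF3 depletion shared 42 long exons with SF3B5 depletion, 15% of its own list and 29.8% of the SF3B5 list. The shared number was 30 with SRSF1 (10.7% and 38.5%), 28 with SRSF2 (10.0% and 42.4%) and 27 with SRSF7 (9.64% and 39.1%), groups measured against the other control. Both were lower for 35 of the 42, 22 of the 30, 24 of the 28 and 22 of the 27. Shared numbers and numbers of tables are not given here for all listed exons, so these counts describe the long exons alone. For the 93 members with a value in both non-targeting groups, siNT1 and siNT2 differed by a median of 3.20 points and by at most 14.5 points, in SLC25A51 (36.5% and 22.0%).

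Of the 26 exons in 4 or more tables, 15 were lower in all of them, 11 were lower in some and higher in others, and 0 were higher in all. Most listed exons of any length were lower after each depletion, from 62.6% for SRSF1 to 97.9% for SF3B5. Directions were not counted for all exons in 4 or more tables, so these counts describe the long exons alone. ESPL1, which encodes the protease separase, had an exon of 989 bases that was lower in 6 tables. It had 94.4% in siNT1 and 96.2% in siNT2, with 70.6% after SRSF1, 74.3% after SRSF2, 78.1% after SRSF7, 64.1% after SF3B5, 81.1% after SRSF3 and 72.7% after RBM39 depletion. Being listed as lower already puts each of these values at least 15 points below its own control.

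In some of these exons the direction after SRSF3 depletion was opposite to that after depletion of other SR proteins. SRSF3 was depleted in the third set and the others in the second, so factor and set cannot be told apart. The MIS12 exon, annotated as untranslated at chromosome 17, 5488196 to 5488589, had 61.8% in siNT1 and 4.99% after SRSF1, 25.5% after SRSF7 and 22.2% after SF3B5 depletion. Against a siNT2 value of 54.1% it had 17.2% after RBM39 and 74.8% after SRSF3 depletion. The ZSCAN23 exon of 485 bases had 76.6% in siNT1 and 14.9%, 9.07% and 44.7% after SRSF1, SRSF2 and SRSF7 depletion, but 62.9% in siNT2 with 83.6% after SRSF3 and 89.7% after RBM39 depletion. PPM1K was lower in the 3 SR protein tables of the second set, between 20.9% and 30.4%, and higher after RBM39 depletion. It was not listed after SRSF3 depletion. The reverse order was seen for SYNRG, a clathrin adaptor partner, whose exon of 303 bases had 39.0% in siNT1 with 56.5% and 60.6% after SRSF1 and SRSF7 depletion, and 38.6% in siNT2 with 7.80% and 10.9% after SRSF3 and RBM39 depletion. Of the 17 exons of this group listed after SRSF3 depletion, 14 were lower and 3 higher, where 80.9% of all listed exons of that table were lower.

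**Figure D5:**
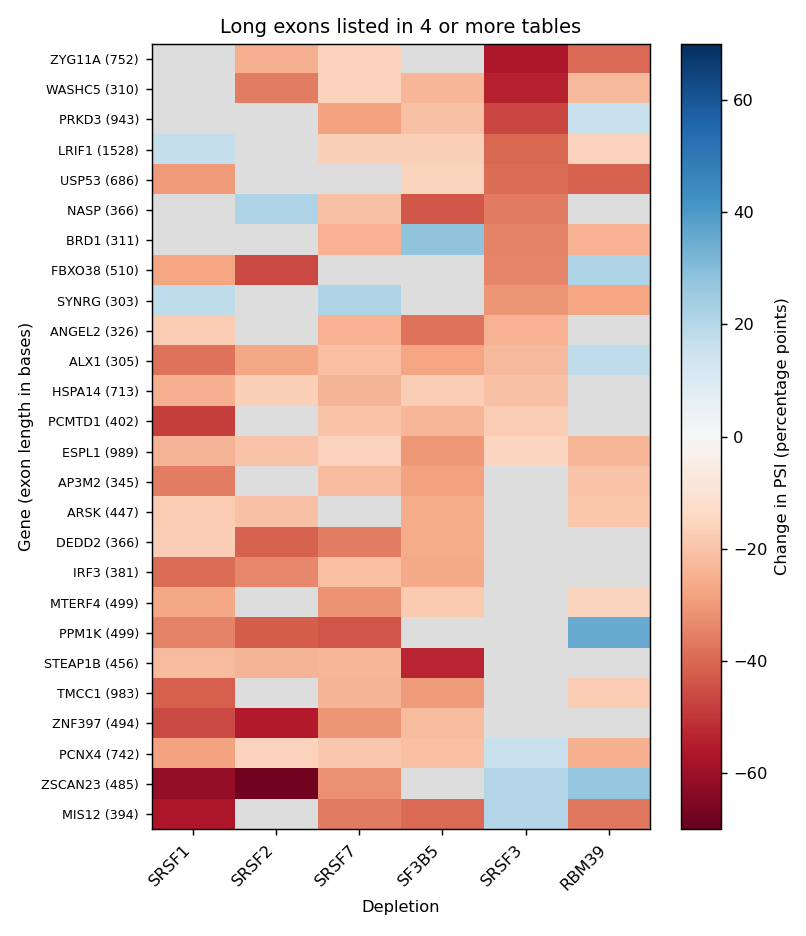
Difference in PSI (colour, percentage points, red lower and blue higher than the control) of the 26 long exons listed in 4 or more tables, with genes and exon lengths in bases in rows and the 6 depletions in columns; grey cells were not listed. Rows are ordered by the difference after SRSF3 depletion; 15 rows hold red cells alone, and PCNX4, ZSCAN23 and MIS12 at the foot are blue for SRSF3 and red for SRSF1.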

How the data were processed

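RNA of 20 HEK293T samples was sequenced as stranded poly(A) libraries, per the labels' protocols. Per the submitters' processing notes, the tools were cutadapt and Bowtie with build hg38; versions, read depth and the listing rule were not given in the sources used. The authors deposited 7 tables of group means of PSI as percent values for events past a difference of about 15 points. The difference per event, deposited by the authors as a score in percentage points, was recomputed as treated minus control, and event length is given in bases in the deposited tables as another column. Each control column was tied to siNT1 or siNT2 by the labels' sets, and tables sharing a control held identical control values.

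Exon events above 300 bases were counted with Python 3.11.15, pandas 2.3.3 and SciPy 1.17.1, with exact Clopper-Pearson 95% intervals, which cover counting error only. No model could be fitted to group means, so no p-value is given. Positions and sequences came from GENCODE release 29 (GRCh38) where the gene has exactly 1 internal exon of the event's length. All 7 tables were used, and no column of other samples was present.

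The members, gene lists and tests were chosen with earlier results of these data known. The exons named were the 12 largest decreases, 6 largest increases and 8 longest after SRSF3 depletion, the 5, 4 and 3 after each other depletion, those of MLN8237, those in 4 or more tables, up to 4 per gene list, and those within 5 bases of the length limit. A few others, such as the SF3B5 exons printed and second exons of a gene, were added to describe a count. Some exons the rule selects are not reported here.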

Additional observations from a re-analysis of the deposited data

How the results depend on the processing

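No paired analysis was possible because the files hold group means only, and for the same reason no replicate could be left out. No exon had several annotated matches, so the other matching rule changed nothing. SRSF3 depletion had the highest share of long exons in 9 of 10 alternatives; the exception was exons above 1000 bases, where MLN8237 had 1.65% from 2 exons and SRSF3 0.775% from 26. Values outside the main interval or range follow, grouped by alternative.

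With differences of at least 25 points, SRSF3 depletion kept 155 long exons, 10.2% of its exons, of which 97.4% were lower with a median of −36.8 points. The share was then 6.10% for SRSF1, 1.17% for SF3B5, 1.86% for RBM39 and 0% for MLN8237, and 89.7% (SRSF2) and 95.5% (SRSF7) were lower. With exons above 200 bases the share was 21.7% for SRSF3 (727 exons), 10.4% for SRSF1 and for SRSF2, 11.1% for SRSF7, 4.25% for SF3B5, 7.12% for RBM39 and 9.92% for MLN8237. Above 500 bases it was 3.70% for SRSF3 (124 exons), 1.89% for SRSF1, 1.33% for SRSF2, 2.00% for SRSF7, 0.655% for SF3B5 and 1.34% for RBM39, and the 2 MLN8237 exons had a median difference of 1.46 points, of opposite sign to the main value.

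Above 1000 bases the share was 0.440% for SRSF1, 0.380% for SRSF2, 0.429% for SRSF7, 0.164% for SF3B5 and 0.506% for RBM39. The median difference there changed sign to 16.7 points for SRSF1, 16.8 for SRSF2, 17.8 for SRSF7 and 1.46 for MLN8237, with 42.9%, 37.5% and 33.3% of the 7, 8 and 6 exons of the 3 SR proteins lower; the cause was not tested. It was −30.5 points for SRSF3, and 93.8% (SF3B5) and 85.7% (RBM39) were lower.

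With a control PSI from 20 to 80, SRSF3 had 52 long exons or 5.29%, 80.8% of them lower, with a median control of 60.3%, and the share was 3.11% for SF3B5 and 3.83% for RBM39. With a control PSI of 95 or more it was 13.2% for SRSF3, 7.73% for SRSF1, 1.76% for SRSF2, 6.42% for SRSF7, 0.753% for SF3B5, 1.27% for RBM39 and 0% for MLN8237. With exons listed in 1 table only, it was 12.5% for SRSF3 (median control 98.7%), 1.04% for SF3B5 and 4.23% for RBM39, and 71.4% (SRSF1), 56.3% (SRSF2) and 100% (MLN8237, 1 exon) were lower. With 1 exon per gene the SRSF3 share was 9.89%. With all listed events as the denominator it was 6.60% for SRSF3, 3.77% for SRSF1, 2.41% for SRSF2, 1.19% for SF3B5 and 1.80% for RBM39.

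The tables hold only exons past the listing limit. Exons measured but not listed were not analysed here, so a share compares listed exons and is not the rate at which long exons respond.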
